A study of Homo sapiens with 4 samples.

Results

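The p53 response group examined here comprised 9 genes, MDM2, MDM4, SESN1, BTG2, PLK2, PLK3, GADD45A, TP53INP1, and ZMAT3, which were chosen by name as known partners and stress targets of p53. Earlier results of these data were known when the choice was made. All 9 were found among the 20372 genes of the deposited table, and all 9 had enough counts to be tested. TPC1, an established line of human papillary thyroid carcinoma, expresses a CCDC6-RET fusion, and BLU6864 is a selective RET inhibitor. RNA was sequenced from cells exposed to BLU6864 for 6 h (BLU6864_6h, 2 libraries) or 24 h (BLU6864_24h, 2 libraries), so every library came from inhibitor-treated cells and each change is between 2 times of treatment. All libraries came from this single line. Vehicle libraries were not analysed here, and time in culture and time in the inhibitor cannot be told apart. The labels give a dose of 100 µM and the methods one of 100 nM. The labels of both 24 h libraries, and of neither 6 h library, carry the word re-analysis, without further detail. Whatever that word marks therefore cannot be told apart from time.

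p53 is a transcription factor that is held at a low level in unstressed cells by the ubiquitin ligase MDM2 and its relative MDM4, which bind the factor and block its activity. After DNA damage, oncogenic signaling, or nutrient stress this restraint is loosened, and p53 activates genes that halt the cell cycle, limit growth signaling, repair DNA, or start cell death. MDM2 is itself a target, which closes a feedback loop. Several of the targets, among them BTG2, PLK2, PLK3, and GADD45A, also respond to growth factors and other stresses without p53.

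Total counts lay between 23917056 and 27457040 per library. Libraries of the same time correlated at a Spearman coefficient of 0.998 or more, and libraries of different times at 0.941 or less. RNA was taken from all cells together, so fewer cells of a kind and less RNA per cell cannot be told apart. Whether the 2 libraries of a time point came from separate cultures is not stated, so P values measure the spread between these libraries, which may be technical. Among thyroid markers, PAX8 had 19124 to 22978 raw counts per library, while TSHR and NKX2-1 had 0 in all 4. Of 8 white blood cell markers, 5 had at most 3 counts in every library. The summed normalized counts of all 8, mostly CD14, were 98.6 to 101 at 24 h and 64.3 to 68.0 at 6 h. Summed fibroblast markers were 145 to 160 at 24 h and 272 to 286 at 6 h. Their members did not move together. Mean normalized counts at 24 h and 6 h were 77.6 and 231 for COL1A1 but 67.5 and 40.2 for LUM. Summed endothelial markers were 26.3 to 47.8 at 24 h and 507 to 542 at 6 h, mostly KDR. All libraries came from a single cultured line, so these marker values are given as expression in that line. Contamination by other cells was not tested.

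Promoter sequence was read for 7 of the 9 genes from RefSeq (GRCh38.p14), as 13 windows of the 250 bases before each annotated start. The p53 response element is a pair of 10-base units called decamers, and an exact p53 decamer on either strand was found in 2 of the 13 windows, against 5.57% of all 35116 promoter windows. They belonged to PLK2, the gene with the largest increase, and to one of the 3 annotated starts of SESN1, the gene with the largest decrease. A complete p53 element with at most 2 mismatches was found in 2 windows, which share 1 site of MDM2, against 0.561% of all windows. These 3 stretches are shown because they hold an exact decamer or a complete element with at most 2 mismatches. They are given on the strand of the gene and without annotated exons, with the matching letters in capitals. The best complete element had 5 mismatches in the PLK2 window and 3 in the SESN1 window. An element with at most 3 mismatches was found in 4.36% of all windows. The PLK2 stretch is chr5:58460140-58460336 on the minus strand, the SESN1 stretch chr6:109008989-109009238 on the minus strand, and the MDM2 stretch chr12:68808767-68809001 on the plus strand, which lies before an internal start.
PLK2: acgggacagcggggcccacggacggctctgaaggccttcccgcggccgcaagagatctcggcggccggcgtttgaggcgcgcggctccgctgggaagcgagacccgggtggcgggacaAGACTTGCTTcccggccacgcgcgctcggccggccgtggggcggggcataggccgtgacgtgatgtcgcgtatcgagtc
SESN1: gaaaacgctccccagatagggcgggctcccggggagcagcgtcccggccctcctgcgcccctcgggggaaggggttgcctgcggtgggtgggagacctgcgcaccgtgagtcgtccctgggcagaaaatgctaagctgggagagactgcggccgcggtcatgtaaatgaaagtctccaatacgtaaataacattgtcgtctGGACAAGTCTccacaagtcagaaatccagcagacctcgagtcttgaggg
MDM2: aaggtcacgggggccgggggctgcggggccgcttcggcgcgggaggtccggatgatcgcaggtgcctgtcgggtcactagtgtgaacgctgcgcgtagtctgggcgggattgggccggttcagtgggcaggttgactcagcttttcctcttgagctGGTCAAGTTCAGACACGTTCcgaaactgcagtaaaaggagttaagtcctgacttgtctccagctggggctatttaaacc
The capitals mark the exact decamer in PLK2 and SESN1, which starts 132 and 49 bases before the annotated start, and the element with 2 mismatches in MDM2, which starts 94 bases before it. The AP-1 motif TGANTCA was found in 2 windows of MDM2, which share 1 site outside its p53 element, against 6.57% of all windows. Both strands were searched for each motif. The FOXO motif GTAAACA, the CREB motif TGACGTCA, and the CArG box of serum response factor were in 0 of the 13, against 2.98%, 1.65%, and 1.16% of all windows. No binding was measured in these libraries, and a match is a description of the letters only.

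The group did not move as a block between 6 h and 24 h. A gene was called higher or lower at a log2 fold change beyond 0.5 with an unadjusted P under 0.01 in edgeR's quasi-likelihood test, the cutoffs of the methods applied in both directions. PLK2, PLK3, and BTG2 rose, SESN1 fell, and MDM2, MDM4, GADD45A, TP53INP1, and ZMAT3 passed neither cutoff on size. The 4 called genes compare with 35.1% of the 12876 genes tested that were called in either direction. The 3 higher genes are 33.3% of the group, against 17.4% of all genes tested, and the 1 lower gene is 11.1%, against 17.7%. The libraries of the time points did not overlap for 9 of 9 genes, 5 above at 24 h and 4 below, which also held for 81.8% of all genes tested, 41.0% above and 40.8% below. All 9 had an adjusted P under 0.05 in edgeR with Benjamini-Hochberg adjustment over all genes, 5 higher and 4 lower, as did 65.6% of the genes tested, 33.0% higher and 32.6% lower. The median log2 fold change was 0.20 in the group and 0.0029 over all genes tested.

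**Figure D1:**
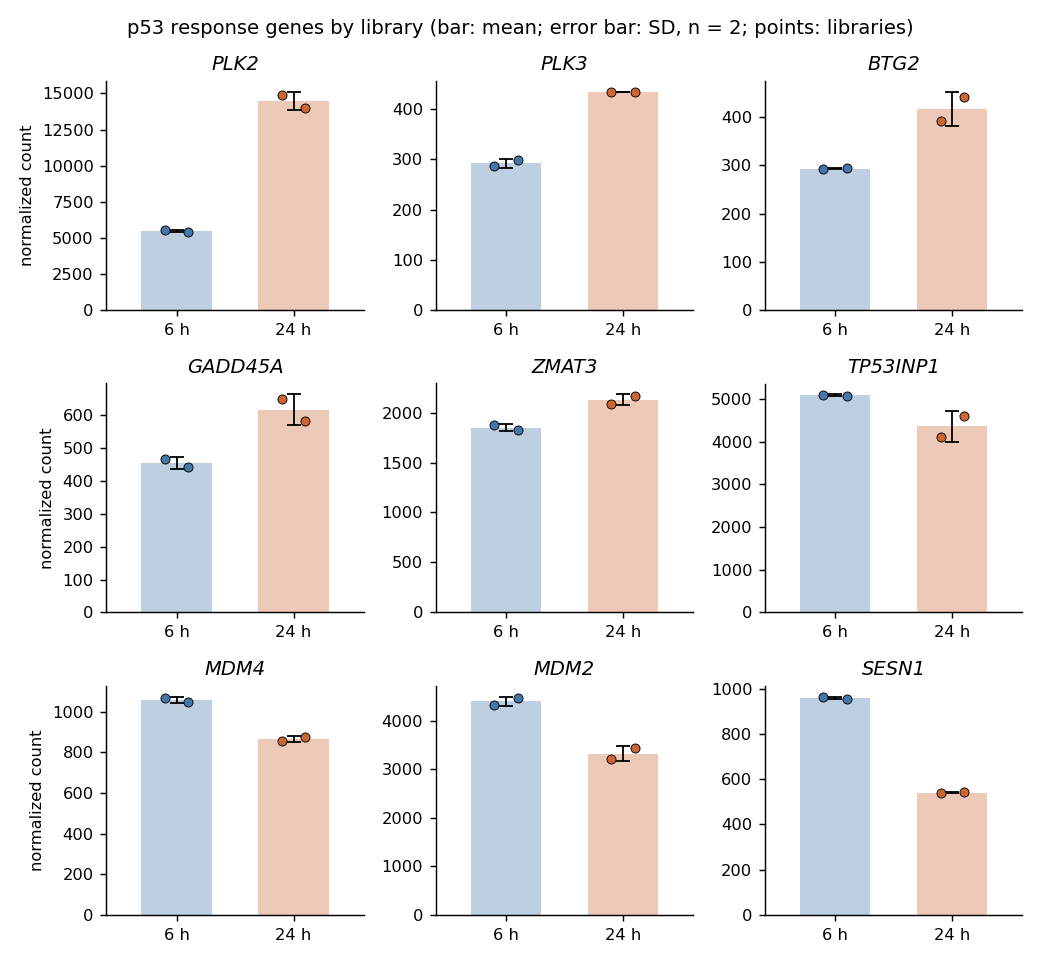
Normalized counts (raw counts scaled by the TMM-adjusted size of each library) of the 9 genes at 6 h and 24 h of BLU6864, with the mean as a bar, the SD of 2 libraries as an error bar, and each library as a point, on a separate axis from 0 for each gene. PLK2 rises from a mean of 5454 to 14470 and SESN1 falls from 958 to 541, while ZMAT3, TP53INP1, and MDM4 differ by less than 20% of their 6 h mean.

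PLK2 and PLK3 encode polo-like kinases that act outside mitosis in stress responses, in contrast to their mitotic relative PLK1. PLK2 (ENSG00000145632), on chromosome 5 of hg19 from 57749809 to 57756087, had 5509 and 5399 normalized counts in the libraries of 6 h and 14920 and 14020 in those of 24 h. It was the most abundant gene of the group and changed most, with both 24 h libraries far above both 6 h libraries. Its log2 fold change was 1.41 (standard error 0.0760, 95% interval 1.25 to 1.56, edgeR adjusted P = 5.59e-15), a 2.65-fold rise. PLK3 (ENSG00000173846), on chromosome 1 from 45265897 to 45271662, had 286 and 298 normalized counts at 6 h and 434 in each library at 24 h. The groups were well separated, since the 2 libraries of a time point differed far less than the time points did. Its log2 fold change was 0.57 (standard error 0.101, 95% interval 0.36 to 0.78, edgeR adjusted P = 1.98e-05), so its interval lay below that of PLK2. A stretch of 78 bp of PLK3 overlaps TCTEX1D4, which had 7.85 and 9.53 mean normalized counts at 24 h and 6 h. The paralogues PLK1 and PLK4, which drive mitosis and centriole duplication, fell, with log2 fold changes of -4.19 and -3.68. PLK1 had 4063 and 4072 normalized counts at 6 h and 236 and 210 at 24 h. Within a library, which needs no scaling, the raw count ratio of PLK2 to PLK1 was 1.36 and 1.33 at 6 h and 63.2 and 66.7 at 24 h. The ratio of PLK3 to PLK1 was 0.0704 and 0.0733 at 6 h and 1.84 and 2.06 at 24 h.

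BTG2 and GADD45A encode growth arrest proteins. BTG2 is an antiproliferative protein that promotes shortening of mRNA tails, and GADD45A binds cyclin-dependent and stress kinases. BTG2 (ENSG00000159388), on chromosome 1 from 203274619 to 203278730, had 293 and 294 normalized counts at 6 h and 392 and 442 at 24 h. The 24 h libraries were both higher but stood further from each other than the 6 h pair. Its log2 fold change was 0.51 (standard error 0.104, 95% interval 0.29 to 0.72, edgeR adjusted P = 0.000129), just past the cutoff on size. It was 0.46 with library size alone as the scaling and 0.42 without replicate 2 of 24 h, both under that cutoff. GADD45A (ENSG00000116717), on chromosome 1 from 68150744 to 68154021, had 466 and 441 normalized counts at 6 h and 649 and 582 at 24 h. Here too the libraries of the time points did not overlap. Its log2 fold change of 0.44 (standard error 0.0928, 95% interval 0.25 to 0.63, edgeR adjusted P = 0.000177) was just short of the cutoff, and without replicate 2 of 24 h it was 0.52 and passed. The intervals of BTG2 and GADD45A overlap over most of their length, so these data do not separate a gene that passed from one that did not.

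The relatives of BTG2 and GADD45A did not share these values. BTG3 and TOB1, which are antiproliferative proteins of the BTG and TOB family, fell with log2 fold changes of -1.08 (standard error 0.0796) and -0.88 (standard error 0.0833). BTG3 had 1831 and 2031 normalized counts at 6 h and 981 and 852 at 24 h. The log2 fold change was -0.050 for BTG1 and 0.23 for TOB2, and neither passed the cutoffs. GADD45B had a log2 fold change of -0.14 (95% interval -0.32 to 0.041), and GADD45G had at most 8 counts in a library and was not tested. The raw count ratio of BTG2 to BTG3 was 0.160 and 0.145 at 6 h and 0.399 and 0.518 at 24 h.

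MDM2 and MDM4 are the negative regulators of p53. MDM2 (ENSG00000135679), on chromosome 12 from 69201956 to 69239214, had 4331 and 4466 normalized counts at 6 h and 3209 and 3432 at 24 h. Both 24 h libraries were below both 6 h libraries, at a mean of 75.5% of the 6 h level. The log2 fold change was -0.41 (standard error 0.0713, 95% interval -0.55 to -0.26, edgeR adjusted P = 1.83e-05), which did not reach the cutoff on size under any alternative run. A stretch of 3238 bp of MDM2 overlaps CPM, which is far less abundant, with 237 mean normalized counts at 24 h and 349 at 6 h. The methods refer to a stranded TruSeq kit and the labels to TruSeq RNA without a word on strand, and the strand setting of the counting is not given in the sources used here, so how reads from that stretch were assigned is uncertain. MDM4 (ENSG00000198625), on chromosome 1 from 204485511 to 204542871, had 1069 and 1047 normalized counts at 6 h and 854 and 876 at 24 h. Its levels at 24 h were likewise lower in both libraries, and the log2 fold change was -0.29 (standard error 0.0774, 95% interval -0.45 to -0.13, edgeR adjusted P = 0.00189). The raw count ratio of MDM4 to MDM2 was 0.247 and 0.234 at 6 h and 0.266 and 0.255 at 24 h, so the balance of the pair moved little. The ratio of PLK2 to MDM2, in contrast, was 1.27 and 1.21 at 6 h and 4.65 and 4.08 at 24 h.

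SESN1, a sestrin that restrains mTORC1 signaling and limits oxidative stress, was the one gene of the group that passed both cutoffs on the lower side. SESN1 (ENSG00000080546), on chromosome 6 from 109307640 to 109416022, had 962 and 955 normalized counts at 6 h and 539 and 542 at 24 h. The 2 libraries of each time point were nearly equal, and the time points did not overlap. The log2 fold change was -0.83 (standard error 0.0830, 95% interval -0.996 to -0.655, edgeR adjusted P = 1.88e-09), which left 56.4% of the 6 h level. SESN2, a sestrin induced by both p53 and ATF4, had 1465 and 1509 normalized counts at 6 h and 1047 and 1152 at 24 h, and its log2 fold change of -0.44 missed the cutoff on size. SESN3 had 8 and 5 raw counts at 6 h and 1 in each 24 h library and was not tested. In the same libraries the raw count ratio of BTG2 to SESN1 went from 0.304 and 0.308 at 6 h to 0.726 and 0.815 at 24 h, and that of GADD45A to SESN1 from 0.485 and 0.462 to 1.20 and 1.07. Both ratios, which need no scaling, were thus higher in the 24 h libraries, so BTG2 and GADD45A rose relative to SESN1.

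TP53INP1 and ZMAT3 changed least. TP53INP1 promotes p53 phosphorylation and autophagy, and ZMAT3 is an RNA-binding zinc finger protein that regulates splicing. TP53INP1 (ENSG00000164938), on chromosome 8 from 95938200 to 95961639, had 5099 and 5069 normalized counts at 6 h and 4097 and 4610 at 24 h. Both 24 h libraries were lower, but they stood further apart than the 6 h pair. For TP53INP1 the log2 fold change was -0.22 (standard error 0.0737, 95% interval -0.38 to -0.072, edgeR adjusted P = 0.00976), and without replicate 1 of 24 h, the lower of the pair, it was -0.13 with an unadjusted P of 0.166 in edgeR. Its position lies wholly within that of NDUFAF6, which had 601 mean normalized counts at 24 h and 618 at 6 h. ZMAT3 (ENSG00000172667), on chromosome 3 from 178735011 to 178790067, had 1873 and 1825 normalized counts at 6 h and 2087 and 2165 at 24 h. The libraries did not overlap, but the log2 fold change was only 0.20 (standard error 0.0696, 95% interval 0.059 to 0.35, edgeR adjusted P = 0.0132). TP53INP2 was at -0.017, ZMAT2 at 0.067, and ZMAT5 at -0.27 on the same log2 scale, none past the cutoffs. ZMAT1 had a log2 fold change of 0.57 at a mean of 32.5 and 21.9 normalized counts, with an unadjusted P of 0.0678 in edgeR, and ZMAT4 had 0 counts in all 4 libraries.

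**Figure D2:**
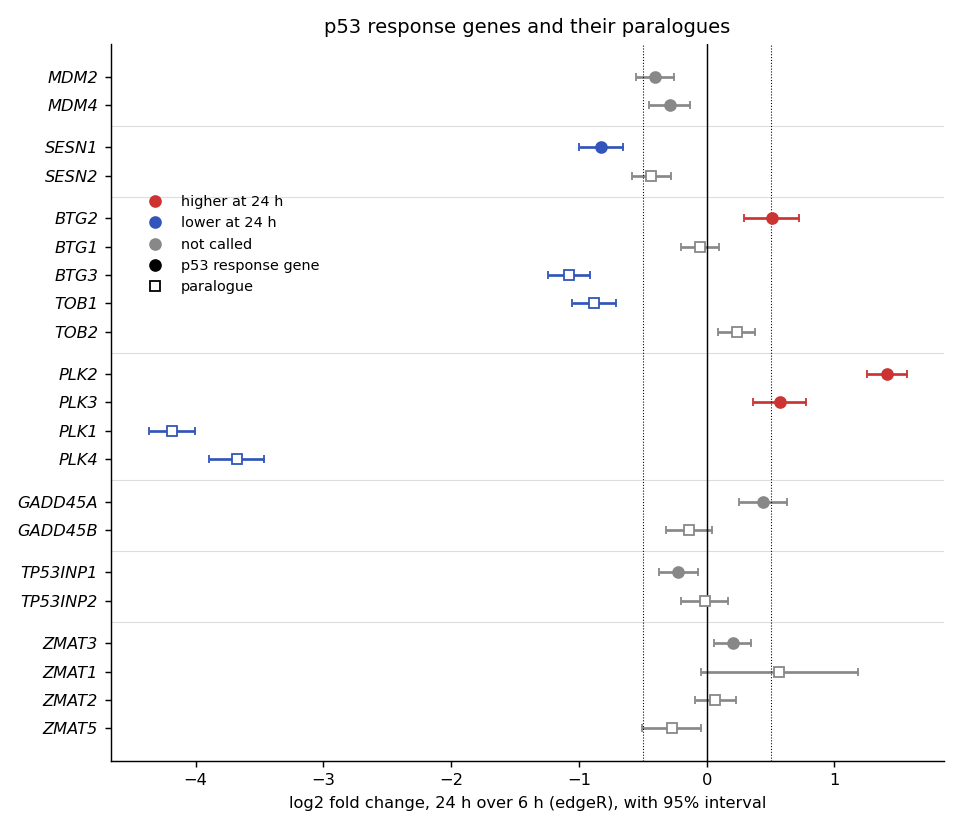
Log2 fold change of 24 h over 6 h with its 95% interval from edgeR for the 9 genes (circles) and for their 12 tested paralogues (open squares), grouped by family, with dotted lines at the cutoffs of 0.5 and -0.5. PLK2 and PLK3 lie right of the upper cutoff and PLK1 and PLK4 far left of the lower one, and BTG2 lies opposite to BTG3 and TOB1.

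Of the 15 paralogues listed for these families, 12 were tested, 0 rose, and 4 fell (33.3%), namely PLK1, PLK4, BTG3, and TOB1, against 17.4% and 17.7% of all genes tested. At an adjusted P under 0.05 in edgeR, without a cutoff on size, 1 was higher, TOB2, and 6 were lower. Of all genes tested, 33.0% were higher and 32.6% lower by that measure. Levels of different genes were compared as RPKM, the count scaled by library size and by the length of the longest coding transcript in GENCODE v44. On this scale PLK2 ranked first at both times, with an RPKM of 74.7 ± 1.06 (SD, n = 2) at 6 h and 198 ± 8.72 at 24 h, followed by TP53INP1 with 34.5 ± 0.140 and 29.6 ± 2.46. Next at 6 h came MDM2 (22.5 ± 0.487) and GADD45A (12.8 ± 0.501). At 24 h GADD45A (17.4 ± 1.33) and MDM2 (17.0 ± 0.806) had overlapping libraries and could not be ordered. SESN1 passed from the 6th to the 8th place of 9, from 6.47 ± 0.0346 to 3.65 ± 0.0145, behind PLK3 and BTG2. MDM4 was last at both times, with 4.02 ± 0.0593 and 3.29 ± 0.0592, but at 6 h it differed from BTG2 by only 0.0819. Every pair of neighbours except GADD45A and MDM2 at 24 h had separate libraries, and the order rests on the transcript length used for each gene.

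The regulators around p53 were called at about the rate of all genes. Of 21 tested genes on a list of 23 that control p53 protein or its activity, 4 rose and 4 fell, which is 19.0% each, against 17.4% and 17.7% of all genes tested, with a median log2 fold change of -0.050. DYRK2, a kinase that phosphorylates p53, had 439 and 440 normalized counts at 6 h and 823 and 686 at 24 h, and rose by a log2 fold change of 0.78 (standard error 0.0958). USP10, a deubiquitinase of p53, and ATR, a DNA damage kinase, rose less, with log2 fold changes of 0.51 and 0.56. Both calls depended on single libraries. USP10 was at 0.50 without replicate 2 of 24 h, 0.49 without replicate 2 of 6 h, and 0.47 with library size alone, and ATR at 0.50 without replicate 1 of 24 h and 0.48 without replicate 2 of 6 h, all short of the cutoff. The checkpoint kinase genes CHEK2 and CHEK1 fell, with log2 fold changes of -1.54 (standard error 0.0930) and -0.98 (standard error 0.0849). CHEK2 had 883 and 935 normalized counts at 6 h and 330 and 296 at 24 h. CSNK1A1, a casein kinase that acts with MDM4 on p53, also fell, with a log2 fold change of -0.66.

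A wider list held 53 other p53 target genes. Of the 49 tested, 7 rose, 13 fell, and 29 passed neither call. These shares are 14.3% and 26.5%, against 17.4% and 17.7% of all genes tested, and the median log2 fold change was -0.050. The lists are described by these counts only, and no set test was run. Of the 7 growth arrest genes, 0 rose and 4 fell (57.1%), against the same 17.4% and 17.7%. CDKN1A, the cyclin-dependent kinase inhibitor p21 and the best known of the targets, had 4552 and 4502 normalized counts at 6 h and 3153 and 3134 at 24 h. The log2 fold change of CDKN1A was -0.53 (edgeR adjusted P = 2.71e-07, standard error 0.0699), which became -0.50, just short of the cutoff, with upper quartile scaling. E2F7, a repressor of cell cycle genes, had a log2 fold change of -1.56, and SFN, the 14-3-3 sigma protein, one of -2.50 at 26 and 30 raw counts at 6 h and 7 and 3 at 24 h. The raw count ratio of CDKN1A to MDM2 was 1.05 and 1.01 at 6 h and 0.983 and 0.913 at 24 h.

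Of 17 tested cell death targets, 1 rose (5.88%) and 2 fell (11.8%), against 17.4% and 17.7% of all genes tested, with a median log2 fold change of -0.018. Without the cutoff on size, an adjusted P under 0.05 in edgeR was reached by 6 genes on the higher and 4 on the lower side. Among all genes tested, 33.0% reached it on the higher and 32.6% on the lower side. AEN, a nuclease of apoptotic cells, rose with a log2 fold change of 0.85, and the death receptor FAS and the decoy receptor TNFRSF10D fell with -0.60 and -0.70. FAS had 2308 and 2467 normalized counts at 6 h and 1558 and 1584 at 24 h. The 4 DNA repair targets held 0 higher and 3 lower genes (75.0%), DDB2 with a log2 fold change of -1.14, POLH with -0.54, and RRM2B with -0.51. By an adjusted P under 0.05 in edgeR, with no cutoff on size, 1 of the 4 was higher and 3 were lower. DDB2, a damage recognition protein of nucleotide excision repair, had 881 and 945 normalized counts at 6 h and 431 and 400 at 24 h. RRM2B, a ribonucleotide reductase subunit, was at -0.48 without replicate 1 of 24 h, without replicate 2 of 6 h, or with upper quartile scaling, and POLH, a translesion polymerase, at -0.49 without replicate 2 of 24 h, so these calls did not hold throughout.

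Of 10 tested targets in metabolism and autophagy, 3 rose (30.0%) and 1 fell (10.0%), against 17.4% and 17.7% of all genes tested, with a median log2 fold change of 0.48. PRKAB1, a subunit of the energy sensor AMPK, ALDH4A1, a mitochondrial enzyme of proline breakdown, and SCO2, an assembly factor of cytochrome oxidase, had log2 fold changes of 0.71, 0.69, and 0.60, and STEAP3, a metalloreductase, one of -0.60. PRKAB1 had 1141 and 1157 normalized counts at 6 h and 1935 and 1820 at 24 h. Secreted and other targets held 3 of 11 higher genes (27.3%), among them the largest rise of the 49 targets, and 3 lower ones (27.3%). GDF15, a stress cytokine, had 1400 and 1312 normalized counts at 6 h and 3776 and 3846 at 24 h, without overlap, and rose by a log2 fold change of 1.49 (standard error 0.0725). IGFBP3, which binds insulin-like growth factors, and CSF1, a macrophage growth factor, rose with 1.07 and 0.79. KITLG, the ligand of the KIT receptor, fell with -1.66, KIAA0247 (also named SUSD6) with -1.07, and CD82, a membrane tetraspanin, with -0.55.

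**Figure D3:**
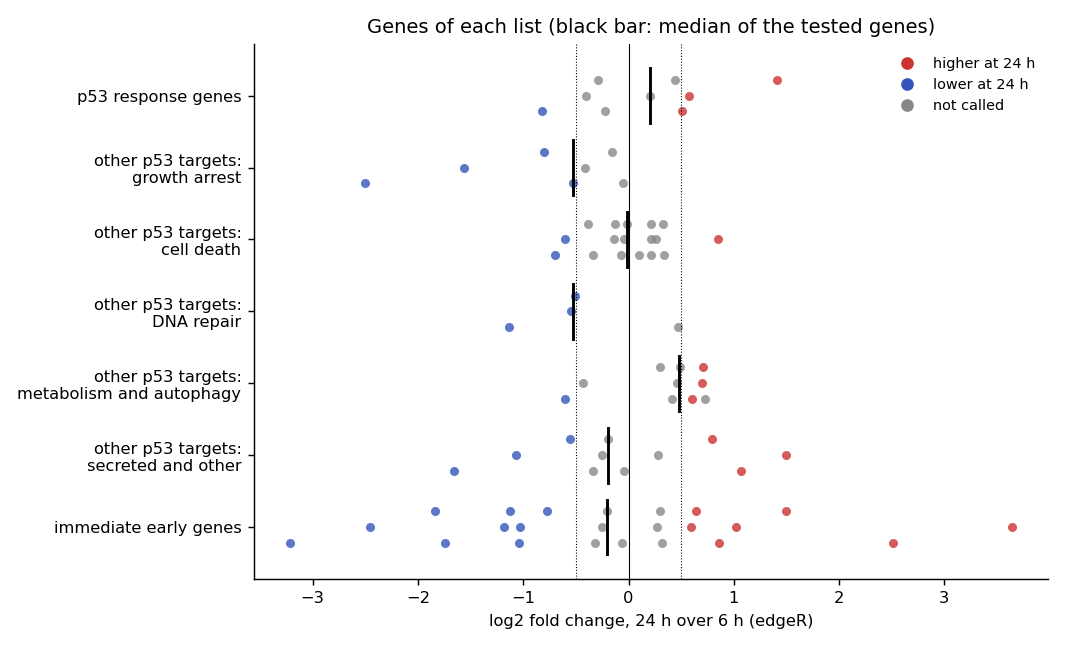
Log2 fold change of 24 h over 6 h from edgeR for each tested gene of the p53 response group, of the 5 lists of other p53 targets, and of the immediate early genes, red where higher, blue where lower, and grey where not called, with a black bar at the median of each list and dotted lines at 0.5 and -0.5. The medians are -0.53 for growth arrest, -0.52 for DNA repair, and 0.48 for metabolism and autophagy, and called genes lie on both sides of 0 in the cell death, metabolism, secreted, and immediate early rows but only below 0 in the growth arrest and DNA repair rows.

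PLK2, PLK3, and BTG2 are also known as immediate early genes, which growth factor signaling through ERK switches on within minutes. A list of 25 other immediate early genes held 23 that were tested, of which 7 rose (30.4%) and 9 fell (39.1%), against 17.4% and 17.7% of all genes tested, with a median log2 fold change of -0.20. The rises were led by CYR61, MYC, CTGF, and FOSL1, with log2 fold changes of 3.65, 2.51, 1.49, and 1.02. The falls were led by EGR2, KLF2, KLF4, and FOS, with -3.21, -2.45, -1.84, and -1.75. The rise of PLK2 was of the size seen for CTGF. These 8 genes were named for having the largest changes of the list, so they give no measure for the rises of PLK2, PLK3, or BTG2.

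**Figure D4:**
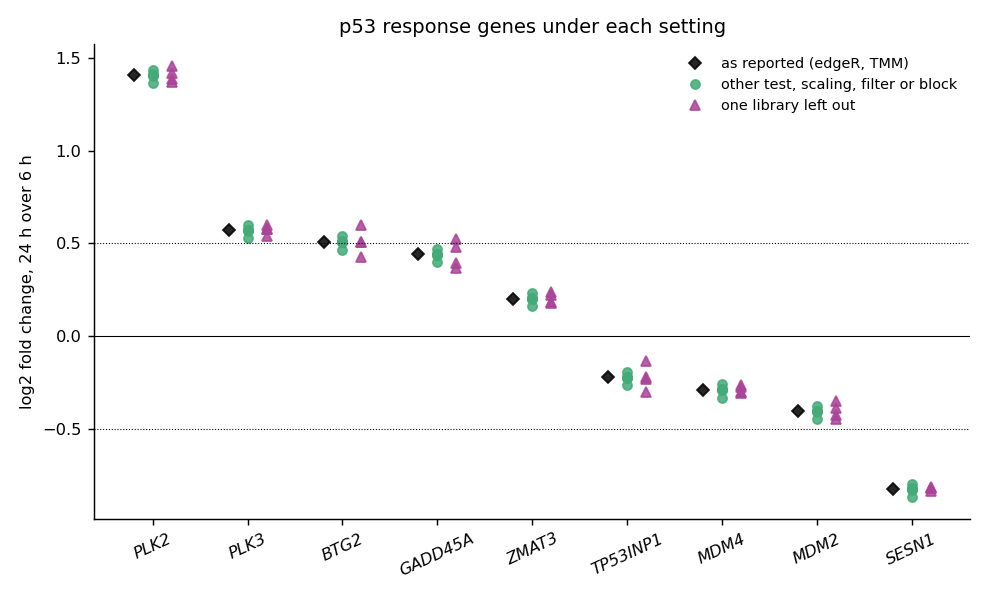
Log2 fold change of 24 h over 6 h of the 9 genes as reported (diamonds), with another test, scaling, filter, or the replicate block (circles), and without each single library (triangles), with dotted lines at 0.5 and -0.5. PLK2, PLK3, and SESN1 stay beyond the cutoffs under every setting plotted, BTG2 and GADD45A lie on both sides of 0.5, and no gene crosses 0.

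Across the alternatives run, the log2 fold change stayed between 1.37 and 1.46 for PLK2, 0.53 and 0.60 for PLK3, and -0.87 and -0.80 for SESN1. These 3 genes kept their calls under each of them. The range was -0.45 to -0.35 for MDM2, -0.33 to -0.26 for MDM4, -0.30 to -0.13 for TP53INP1, and 0.16 to 0.24 for ZMAT3, always short of the cutoff. DESeq2 run on the same counts called the same 4 genes of the group.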

How the data were processed

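Gene expression was measured by RNA sequencing in 4 libraries of TPC1 cells. The processing notes name STAR 2.3, the hg19 build, and DESeq2, and the labels name TruSeq RNA libraries and 50 bp single-end reads, whereas the methods describe a stranded TruSeq kit and paired-end reads. The authors deposited raw counts per gene, without normalization, for 20372 genes, and the counting program, annotation release, and strand setting are not given in the sources used here. The authors also deposited a normalized signal, the count divided by one size factor per library, which was not used, and the log2 fold change, standard error, Wald statistic, and P values of their own comparison, which were not used either. The number of other columns of values per sample left unused was 0.

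In R 4.3.3, edgeR 4.0.16 was run on the raw counts with its filterByExpr filter, which left 12876 genes, TMM scaling, and the quasi-likelihood test (glmQLFit and glmQLFTest) of time. The log2 fold change and its F statistic gave the standard error. Normalized counts are raw counts over the TMM-scaled library size, set to the mean of the 4 libraries. P values were adjusted by the Benjamini-Hochberg method over all genes tested. The procedure was tested on simulated counts for the comparison of 24 h with 6 h, in which, of 12761 genes, 96.0% of 100 genes changed by a log2 fold change of 1 and 80.0% of 100 changed by 0.5 were recovered at an adjusted P under 0.05. The simulation changed only 200 genes, whereas 65.6% of the genes tested in the data had an adjusted P under 0.05 in edgeR. Recovery was scored by the adjusted P, so it does not measure calls by the cutoffs on size and unadjusted P. DESeq2 1.42.0 was an alternative test. Transcript lengths came from GENCODE v44, and figures were drawn with matplotlib 3.10.9.

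The genes of the group and the gene lists were chosen with earlier results of these data known. The genes named were the 9 of the group, their paralogues, and up to 4 called genes with the largest rise and 4 with the largest fall of each further list. The results of some single genes that this rule covers are not reported here. As alternatives, scaling was changed to library size alone or the upper quartile, the filter was dropped or raised to 10 counts per library, the test was changed to DESeq2, the replicate number was added as a block, genes were called by the adjusted P, and every library was omitted once.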

Additional observations from a re-analysis of the deposited data

How the results depend on the processing

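Calls by an adjusted P under 0.05 in edgeR, with no cutoff on size, gave 4247 higher and 4196 lower genes in place of 2238 and 2278, 5 and 4 of the p53 response group in place of 3 and 1, and 19 and 20 of the other p53 targets in place of 7 and 13. This alternative drops the cutoff on size, and called 33.0% of all genes tested higher and 32.6% lower. BTG2 was at a log2 fold change of 0.46 with library size alone and between 0.42 and 0.60 with each library left out, and GADD45A lay between 0.37 and 0.52 in those 4 fits. The number of higher genes in the group was 2 with library size alone. Without replicate 2 of 24 h, BTG2 was at 0.42, under the cutoff on size, and GADD45A at 0.52, above it. The median log2 fold change of the other p53 targets was -0.050, but -0.092 with library size alone, -0.020 with upper quartile scaling, and between -0.11 and -0.044 with each library left out. Library size alone shifted the median of all genes tested to -0.040 and upper quartile scaling to 0.033. What caused the other shifts was not tested. Genes near 0 changed sign. With each library left out, BTG1 ranged from -0.12 to 0.019, TP53INP2 from -0.18 to 0.14, and ZMAT2 from -0.027 to 0.16, and TP53INP2 was at 0.012 with upper quartile scaling. A fit without 1 library leaves 1 library at a time point, which is assumed to vary like the pair at the other.

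The replicate numbers 1 and 2 occur at both times, but no source gives their meaning, and libraries with the same number deviated from their time point's mean with a correlation over genes of 0.155. The block on replicate number gave 2283 higher and 2313 lower genes, and no call in the p53 response group changed. With 2 libraries a time point, outliers were not tested, and the spread is estimated mostly from all genes together.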

Other observations

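Stress factors other than p53 share targets with the group, since FOXO factors are known to induce sestrin and GADD45 genes and ATF4 to induce SESN2. Of 14 tested FOXO targets, 1 rose (7.14%) and 3 fell (21.4%), against 17.4% and 17.7% of all genes tested, with a median log2 fold change of -0.052. CITED2, a transcriptional coregulator, had a log2 fold change of 0.93, whereas BCL2L11, the death-promoting protein BIM, FBXO32, a ubiquitin ligase subunit, and TXNIP, a thioredoxin inhibitor, had -1.53, -1.16, and -0.84. BCL2L11 had 1662 and 1613 normalized counts at 6 h and 507 and 624 at 24 h. Of 12 tested ATF4 targets, 2 rose (16.7%) and 5 fell (41.7%), against the same shares of all genes, with a median of -0.33. PSAT1, an enzyme of serine synthesis, and TRIB3, a pseudokinase, had log2 fold changes of 1.04 and 0.81, and SLC7A11, a cystine transporter, ASNS, asparagine synthetase, DDIT4, an inhibitor of mTORC1, and ATF3, a stress transcription factor, had -1.66, -1.33, -1.32, and -1.03. DDIT4 had 40510 and 37523 normalized counts at 6 h and 15993 and 15253 at 24 h. No set test was run on these lists.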
